A study of Mus musculus with 12 samples.

Results

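The 10 genes described here belong to the integrated stress response and to the serine pathway that this response controls: Eif2ak3, Atf4, Ddit3, Ppp1r15a, Trib3, Sesn2, Asns, Phgdh, Psat1 and Mthfd2. They were taken by symbol from a list of ATF4 and its amino acid, serine and one-carbon targets, and all 10 were found among the 32047 genes of the count table. RNA sequencing covered 12 mouse kidney libraries in 3 groups of 4. The AKI_A_FGF23_R176QR179Q group, called the FGF23 variant group, overexpressed the hormone FGF23 with the substitutions R176Q and R179Q, and 3 weeks later received acute kidney injury of the kind that follows rhabdomyolysis (muscle breakdown). The AKI_A_mcherry group, called the mCherry group, bears the names of the injury and of a red fluorescent protein. The third group is NC, and its letters are not spelled out in the labels. The sources used here give no strain, sex, age, vehicle of overexpression or time between injury and collection. No uninjured kidneys with the FGF23 variant or with mCherry were analysed here, so the difference between mCherry and NC holds the injury together with any other treatment that set these groups apart. The labels do not say whether libraries came from separate animals, so the p-values reflect the spread among these samples only, which may be technical.

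The integrated stress response is a shared pathway of cells under endoplasmic reticulum stress, amino acid shortage, heme deficiency or viral RNA. Each signal activates a kinase that phosphorylates the translation factor eIF2, which lowers general protein synthesis but favours translation of the Atf4 mRNA, so the level of that mRNA is not a measure of ATF4 protein. ATF4, often paired with a C/EBP factor, then raises genes of amino acid import and synthesis, and the kidney is an organ that makes serine and releases it to the blood.

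ATF4 and C/EBP factors bind composite elements whose core letters are TGATGNAA, and related genes carry the looser form TGNTGNAA. The 250 bases before each gene's start were searched on both strands for TGNTGNAA, of which TGATGNAA is a part, and for TGACGTCA, the element bound by CREB and ATF factors. The sequences are from RefSeq on GRCm38.p6, another build than that of the counts. All 10 genes were found there, with 11 starts in all, 2 of them of Psat1. Of these genes, 5 held the looser core and 1 the TGACGTCA element. Neither was found for Atf4, Eif2ak3, Ddit3 and Mthfd2, nor at the second start of Psat1. The stretches below are shown because they place these letters in the genes whose levels follow. Each is written 5′ to 3′ along the gene's strand, and capitals mark the match.
Trib3: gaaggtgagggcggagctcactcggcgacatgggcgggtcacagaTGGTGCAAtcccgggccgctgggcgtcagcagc
Asns: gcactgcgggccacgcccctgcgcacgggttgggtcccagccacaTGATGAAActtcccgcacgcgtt
Psat1: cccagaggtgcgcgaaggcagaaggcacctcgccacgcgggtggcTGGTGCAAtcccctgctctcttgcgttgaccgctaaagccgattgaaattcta
Phgdh: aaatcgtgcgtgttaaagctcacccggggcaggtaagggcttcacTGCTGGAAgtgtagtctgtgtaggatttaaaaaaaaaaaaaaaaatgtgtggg
Sesn2: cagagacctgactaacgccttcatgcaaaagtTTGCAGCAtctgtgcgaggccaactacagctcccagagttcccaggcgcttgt
Ppp1r15a: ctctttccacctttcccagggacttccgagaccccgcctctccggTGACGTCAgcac

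The Trib3 stretch lies at chr2:152344061-152344138, the Asns stretch at chr6:7693210-7693277 and the Psat1 stretch at chr19:15925143-15925240, all upstream of the gene on the minus strand. The Phgdh stretch lies at chr3:98340040-98340137, the Sesn2 stretch at chr4:132510622-132510706 and the Ppp1r15a stretch at chr7:45526269-45526325, also on the minus strand. The match began 33 bases before the start in Trib3, 23 in Asns, 136 in Psat1, 123 in Phgdh, 218 in Sesn2 (read on the opposite strand) and 12 in Ppp1r15a. The match of Asns was the only one among the 10 genes to have the stricter core TGATGNAA. Trib3 and Psat1 shared a run of 12 bases, TGGTGCAATCCC, that was present in 4 of 32851 windows. The run was picked as the longest stretch that these 2 windows have in common, so its rarity was not tested. Of all windows of the same length, 12.8% held TGNTGNAA, 3.45% held TGATGNAA and 1.55% held TGACGTCA. A match is a description of letters in the window and was not tested as a binding site.

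The library totals were 55324078 to 70638283 counts. Fgf23, the overexpressed gene, had 320 to 517 counts in the FGF23 variant libraries and 0 counts in the 8 others. The summed level of the tubular injury markers Havcr1, Lcn2 and Krt20 was 673 to 2097 CPM (a gene's count as a share of the library total, corrected by the TMM factor) in the FGF23 variant group, 4054 to 4995 CPM in the mCherry group and 4.39 to 11.6 CPM in NC. The 7 proximal tubule markers summed to 1984 to 4180 CPM in the FGF23 variant group, 1150 to 2065 CPM in the mCherry group and 11178 to 15321 CPM in NC, so markers of kidney tubule were present in every library. In bulk tissue, fewer cells of a type and less RNA per cell cannot be told apart. Of the genes tested against mCherry in the FGF23 variant group, 11.7% were called higher and 11.4% lower at an adjusted p under 0.05 (edgeR quasi-likelihood test with Benjamini-Hochberg adjustment over all genes, used for each adjusted p below unless another tool is named). The shares were 27.2% higher and 26.0% lower for mCherry against NC, and 21.7% higher and 20.6% lower for the FGF23 variant group against NC. The 3 comparisons share libraries and are not independent of each other.

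Of the 10 genes, 8 were higher in the mCherry group than in NC, against 27.2% of all genes. The same number were higher in FGF23 variant kidneys than in NC, against 21.7%. Trib3, Asns and Mthfd2 had the largest fold changes of mCherry over NC among the 10, and Sesn2 did not pass the test in any comparison. Between the injured groups, Eif2ak3, Asns and Phgdh were called higher in the FGF23 variant group, 3 of 10 against 11.7% of all genes, and no member was called lower. The median log2 fold change of the 10 genes was 0.36 in that comparison, 2.28 for mCherry against NC and 2.96 against NC in FGF23 variant kidneys, while the median over all tested genes was 0.00837, -0.00264 and 0.0109.

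**Figure D1:**
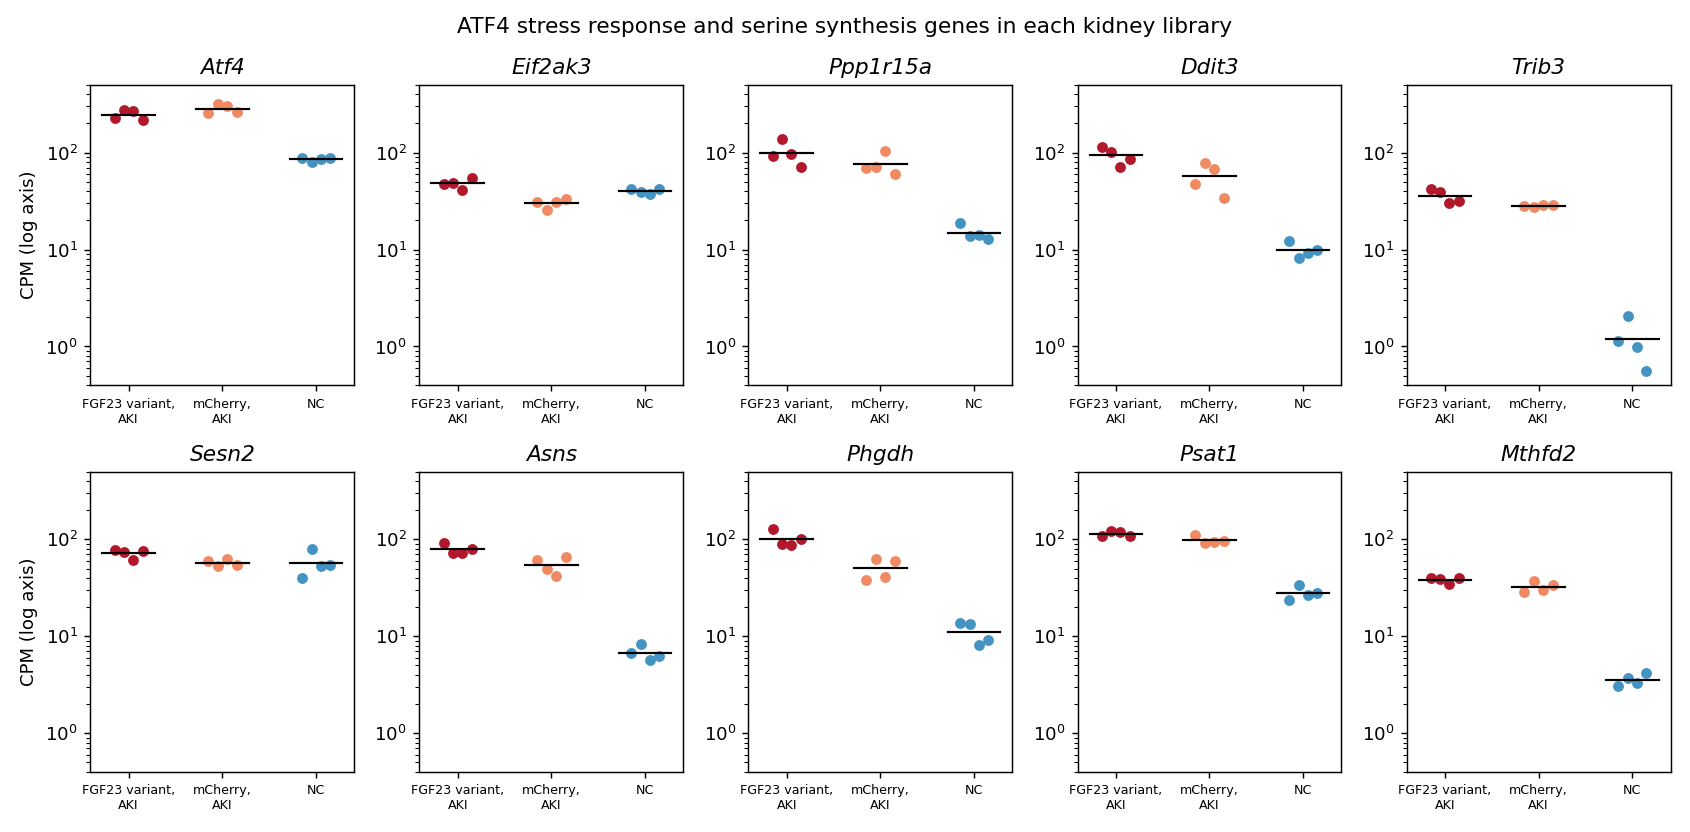
Level of each of the 10 genes in CPM on a log axis in every library (points), by group, with a line at the group mean. Trib3, Asns and Mthfd2 sat far above NC in both injured groups, and the Eif2ak3 points of the mCherry group sat below those of both other groups.

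Eif2ak3 (ENSMUSG00000031668) encodes PERK, the eIF2 kinase of the endoplasmic reticulum membrane. It stood at 48.0, 48.3, 41.4 and 54.6 CPM in the FGF23 variant libraries, at 31.2, 25.6, 31.0 and 33.0 CPM in the mCherry libraries and at 42.5, 39.3, 37.6 and 42.0 CPM in NC. All mCherry libraries were thus lower than all others, and the FGF23 variant libraries overlapped with NC. Eif2ak3 was 1.57-fold higher in FGF23 variant kidneys than in the mCherry group (log2 0.65 ± 0.11, SE, adjusted p = 0.00399, n = 4 each by edgeR). It was the only member called lower in the mCherry group than in NC (log2 -0.41 ± 0.10, edgeR adjusted p = 0.00522). That call was lost when libraries were scaled by their totals alone (log2 -0.28, edgeR adjusted p = 0.0798), and over the other alternatives its adjusted p reached at most 0.0179 when a library was left out. The FGF23 variant group did not differ from NC by the test (log2 0.24 ± 0.09, edgeR adjusted p = 0.0628), though it did without replicate 3 of the FGF23 variant group (adjusted p = 0.0225) and with library totals alone (adjusted p = 5.18e-04, the lowest over the alternatives, which reached 0.245).

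Atf4 (ENSMUSG00000042406) encodes the transcription factor at the centre of the response. It had 226, 273, 268 and 218 CPM in the FGF23 variant libraries, 254, 318, 305 and 260 CPM in the mCherry libraries and 87.7, 80.0, 87.0 and 89.1 CPM in NC. Both injured groups lay above all NC libraries and overlapped with each other. Atf4 was 3.32-fold higher in the mCherry group than in NC (log2 1.73 ± 0.10, edgeR adjusted p = 4.33e-07) and 2.83-fold higher in FGF23 variant kidneys than in NC (log2 1.501 ± 0.10, edgeR adjusted p = 1.59e-06). Its mean was 246 ± 28.1 CPM in the FGF23 variant group and 284 ± 31.7 CPM in the mCherry group (SD, n = 4 each), which did not pass the edgeR test (log2 -0.22 ± 0.12, adjusted p = 0.192). Over the alternatives this difference ran from log2 -0.28 to -0.02 (edgeR or DESeq2 adjusted p of 0.127 to 0.922). By CPM, Atf4 was the only member whose mean was highest in the mCherry group.

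Ddit3 (ENSMUSG00000025408) encodes CHOP, a transcription factor induced by ATF4 and linked to death of stressed cells. Its levels were 116, 102, 70.4 and 85.6 CPM in the FGF23 variant libraries, 47.0, 78.3, 68.2 and 34.0 CPM in the mCherry libraries and 12.3, 8.13, 9.22 and 10.02 CPM in NC. The injured groups overlapped in 1 mCherry library, replicate 2, which exceeded replicate 3 of the FGF23 variant group, and both lay above NC. Ddit3 was 5.76-fold higher in the mCherry group than in NC (log2 2.53 ± 0.25, edgeR adjusted p = 1.44e-05) and 9.32-fold higher in FGF23 variant kidneys than in NC (log2 3.22 ± 0.18, edgeR adjusted p = 7.07e-07). The log2 difference of 0.70 ± 0.25 between the injured groups missed the threshold in the edgeR fit (adjusted p = 0.0650). It passed with DESeq2 (adjusted p = 0.0187), with all 12 libraries in 1 edgeR fit (0.0412), with library totals alone (0.0164) and without replicate 2 of the mCherry group (0.0363), and its adjusted p ran from 0.0164 to 0.171 over the alternatives.

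Ppp1r15a (ENSMUSG00000040435) encodes GADD34, the regulatory subunit that brings a phosphatase to eIF2 and so ends the response. It had 92.6, 138, 97.1 and 71.6 CPM in the FGF23 variant libraries, 69.5, 70.4, 103 and 59.9 CPM in the mCherry libraries and 18.6, 13.7, 14.3 and 12.9 CPM in NC. Replicate 3 of the mCherry group exceeded all FGF23 variant libraries but replicate 2, and the other mCherry libraries lay below that group. Both injured groups exceeded NC. The gene was 5.11-fold higher in the mCherry group than in NC (log2 2.35 ± 0.18, edgeR adjusted p = 2.58e-06) and 6.64-fold higher in FGF23 variant kidneys than in NC (log2 2.73 ± 0.20, edgeR adjusted p = 3.59e-06). The injured groups differed by log2 0.38 ± 0.21, which did not pass (edgeR adjusted p = 0.224). With 1 library left out the difference ran from log2 0.19 to 0.57 (edgeR adjusted p of 0.0722 to 0.547).

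Trib3 (ENSMUSG00000032715) encodes a pseudokinase that ATF4 and CHOP induce and that restrains ATF4 in turn. Its levels were 42.5, 39.3, 30.4 and 31.9 CPM in the FGF23 variant libraries, 28.2, 27.2, 28.8 and 28.9 CPM in the mCherry libraries and 1.14, 2.07, 0.987 and 0.558 CPM in NC. It had the largest fold over NC of the 10 genes, 23.8-fold in the mCherry group (log2 4.58 ± 0.33, edgeR adjusted p = 1.40e-06) and 29.9-fold in the FGF23 variant group (log2 4.90 ± 0.33, edgeR adjusted p = 2.08e-06). Its lowest NC library held 35 counts. The injured groups did not overlap, but their log2 difference of 0.33 ± 0.12 missed the threshold (edgeR adjusted p = 0.0647). It passed without replicate 3 of the FGF23 variant group (adjusted p = 0.0389) and with library totals alone (0.0131), within a range of 0.0131 to 0.344 over the alternatives.

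Sesn2 (ENSMUSG00000028893) encodes sestrin 2, a stress protein that senses leucine and restrains the growth kinase complex mTORC1. It had 78.0, 74.1, 61.1 and 75.6 CPM in the FGF23 variant libraries, 60.5, 52.6, 63.2 and 54.3 CPM in the mCherry libraries and 40.04, 79.9, 53.4 and 54.6 CPM in NC. NC alone spanned the values of both injured groups, with replicate 2 highest of all 12 libraries. The log2 difference was 0.31 ± 0.10 for the FGF23 variant group against mCherry (edgeR adjusted p = 0.0566), 0.02 ± 0.18 for mCherry against NC (adjusted p = 0.934) and 0.32 ± 0.18 against NC in FGF23 variant kidneys (adjusted p = 0.178). Without NC replicate 2 the last of these passed the edgeR test (adjusted p = 0.0127), as it did with library totals alone (0.0137), within a range of 0.0127 to 0.367 over the alternatives. The first passed with DESeq2 (adjusted p = 0.0441), without replicate 3 of the FGF23 variant group (0.0288) and with library totals alone (0.0131), within a range of 0.0131 to 0.282.

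Asns (ENSMUSG00000029752) encodes asparagine synthetase, a long-studied ATF4 target. Its levels were 91.7, 73.2, 72.8 and 79.1 CPM in the FGF23 variant libraries, 60.9, 49.4, 42.3 and 66.1 CPM in the mCherry libraries and 6.70, 8.28, 5.73 and 6.28 CPM in NC. The 3 groups were fully apart, with the FGF23 variant group on top and NC lowest. Asns was 1.43-fold higher in FGF23 variant kidneys than in the mCherry group (log2 0.52 ± 0.14, edgeR adjusted p = 0.0270), 8.13-fold higher in the mCherry group than in NC (log2 3.02 ± 0.17, edgeR adjusted p = 3.23e-07) and 11.6-fold higher in FGF23 variant kidneys than in NC (log2 3.54 ± 0.14, edgeR adjusted p = 1.14e-07). The call between the injured groups was lost without replicate 1 (edgeR adjusted p = 0.0805) or replicate 5 (0.0631) of the FGF23 variant group, and without replicate 2 (0.0641) or replicate 3 (0.0538) of the mCherry group. Its adjusted p ran from 0.00761 to 0.0805 over the alternatives.

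Phgdh (ENSMUSG00000053398) encodes the dehydrogenase that draws 3-phosphoglycerate from glycolysis into serine synthesis. It had 127, 88.6, 88.1 and 102 CPM in the FGF23 variant libraries, 38.4, 63.4, 41.3 and 59.8 CPM in the mCherry libraries and 13.6, 13.4, 8.07 and 9.22 CPM in NC. Again the 3 groups did not overlap. Phgdh had the largest difference between the injured groups of the 10 genes, 1.98-fold higher in the FGF23 variant group (log2 0.98 ± 0.18, edgeR adjusted p = 0.00556). It was 4.60-fold higher in the mCherry group than in NC (log2 2.20 ± 0.23, edgeR adjusted p = 1.78e-05) and 9.05-fold higher in FGF23 variant kidneys than in NC (log2 3.18 ± 0.20, edgeR adjusted p = 1.44e-06).

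Psat1 (ENSMUSG00000024640) encodes the aminotransferase that acts next after PHGDH. Its levels were 108, 123, 118 and 108 CPM in the FGF23 variant libraries, 111, 91.9, 93.9 and 95.6 CPM in the mCherry libraries and 23.9, 33.5, 26.6 and 27.9 CPM in NC. The injured groups overlapped through replicate 1 of the mCherry group, and both lay above NC. Psat1 was 3.52-fold higher in the mCherry group than in NC (log2 1.82 ± 0.12, edgeR adjusted p = 9.31e-07) and 4.04-fold higher in FGF23 variant kidneys than in NC (log2 2.02 ± 0.11, edgeR adjusted p = 7.07e-07). Between the injured groups the log2 difference was 0.20 ± 0.10 (edgeR adjusted p = 0.145).

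Mthfd2 (ENSMUSG00000005667) encodes a mitochondrial enzyme of folate metabolism that carries one-carbon units taken from serine. It had 39.7, 39.2, 34.8 and 40.1 CPM in the FGF23 variant libraries, 28.3, 36.8, 30.1 and 33.9 CPM in the mCherry libraries and 3.10, 3.70, 3.28 and 4.21 CPM in NC. Replicate 3 of the FGF23 variant group was the low one of its group and fell within the range of the mCherry group, while all injured libraries exceeded NC. Mthfd2 was 9.06-fold higher in the mCherry group than in NC (log2 3.18 ± 0.14, edgeR adjusted p = 9.92e-08) and 10.6-fold higher in FGF23 variant kidneys than in NC (log2 3.41 ± 0.12, edgeR adjusted p = 6.38e-08). The injured groups differed by log2 0.24 ± 0.10, which did not pass (edgeR adjusted p = 0.118).

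**Figure D2:**
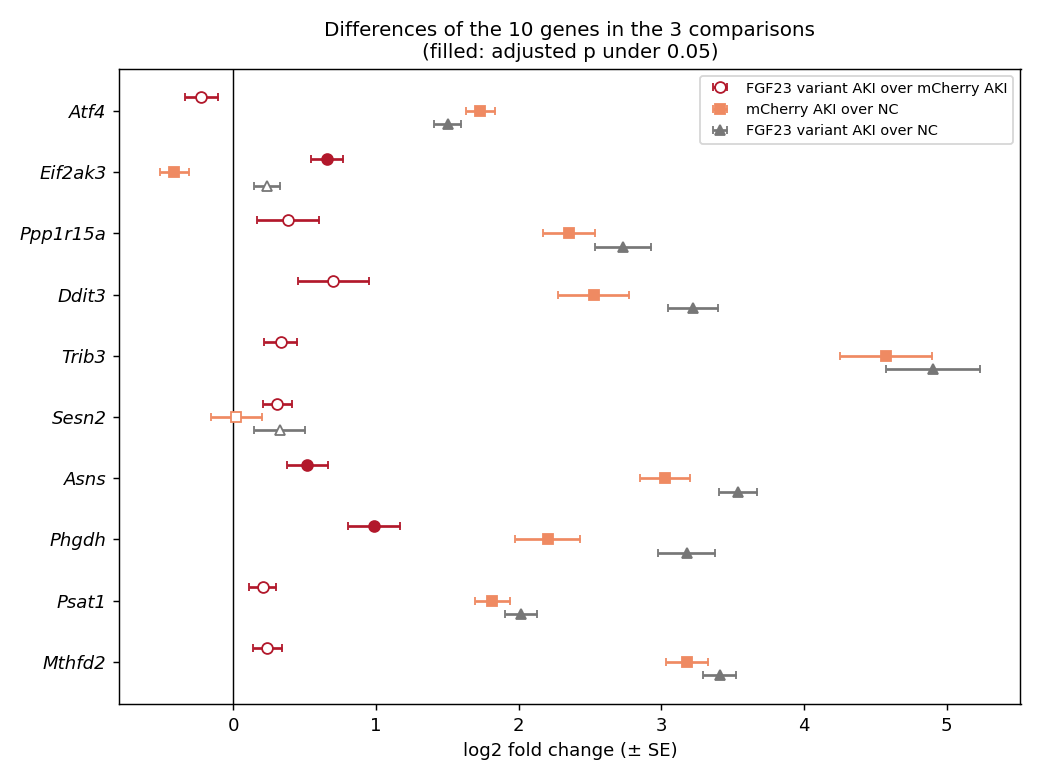
Log2 fold change with its SE for each of the 10 genes in the 3 comparisons, filled where the adjusted p was under 0.05. Eif2ak3, Asns and Phgdh are filled for the FGF23 variant group against mCherry, and Sesn2 is open in all 3 comparisons.

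The libraries of the FGF23 variant and mCherry groups did not overlap for 4 of the 10 genes (Eif2ak3, Trib3, Asns and Phgdh), against 28.4% of all genes tested. The count was 9 of 10 for mCherry against NC, where 51.3% of all genes did not overlap, and 8 of 10 for the FGF23 variant group against NC, where 41.7% did not. Scaling by library totals alone shifted the median of all genes to log2 0.21 between the injured groups. Under it 8 members were called higher there (all but Atf4 and Ppp1r15a), against 21.6% of all genes tested, and among all called genes 79.7% were higher, against 50.6% in the fit with TMM factors. Under that scaling the difference was log2 1.197 for Phgdh and 0.85 for Eif2ak3. Among the newly called members it was 0.92 for Ddit3, which exceeded Eif2ak3. It was 0.53 for Trib3, 0.51 for Sesn2, 0.45 for Mthfd2 and 0.41 for Psat1. The tubular injury markers moved opposite to Phgdh and Asns between the injured groups, with 3 of 3 called lower in the FGF23 variant group. Called higher there were 3 of 7 proximal tubule markers, 3 of 4 markers of the thick ascending limb, 2 of 3 of the distal convoluted tubule, 2 of 3 of endothelium and 1 of 3 of fibroblasts. Of 5 macrophage markers, 1 was higher and 1 lower. None of the markers of collecting duct (4), podocytes (3), neutrophils (4) or fat (2) was called. Those of lymphocytes and skeletal muscle were not tested there. Of all genes tested, 11.7% were higher and 11.4% lower. The thick ascending limb markers summed to 5039 to 7454 CPM in the FGF23 variant libraries and 3021 to 3423 CPM in the mCherry libraries, and those of the distal convoluted tubule to 905 to 1001 CPM in the FGF23 variant libraries and 362 to 672 CPM in the mCherry libraries, so that neither list's groups overlapped. Their part in the differences of the 10 genes was not tested. Neutrophil markers summed to 1.80 to 5.61 CPM, 2.72 to 9.47 CPM and 0.728 to 1.33 CPM in the FGF23 variant, mCherry and NC libraries, and the macrophage markers to 76.0 to 102 CPM, 61.5 to 138 CPM and 103 to 132 CPM. Skeletal muscle markers were at or under 0.449 CPM in every library.

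Ratios of members within a library do not depend on its scaling. The log2 ratio of Ddit3 to Atf4 was -0.97, -1.41, -1.93 and -1.35 in the FGF23 variant libraries, -2.44, -2.02, -2.16 and -2.94 in the mCherry libraries and -2.83, -3.30, -3.24 and -3.15 in NC. The FGF23 variant libraries had more Ddit3 per Atf4 than every mCherry library, a difference of 0.98 on the log2 scale (exact two-sided permutation test, p = 0.0286, the smallest that 4 against 4 can give, adjusted p = 0.0357 over 15 ratio tests). Between mCherry and NC the difference of 0.74 did not pass (exact permutation p = 0.0571, adjusted p = 0.0659). Without replicate 4 of the mCherry group it was 0.925, with an exact permutation p of 0.0286.

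For Asns to Atf4 the log2 ratio was -1.30, -1.90, -1.88 and -1.46 in the FGF23 variant libraries, against -2.06, -2.69, -2.85 and -1.98 in the mCherry libraries. The groups did not overlap and differed by 0.76, and the mCherry group exceeded NC by 1.29 (exact permutation p = 0.0286 and adjusted p = 0.0357 for each). Trib3 to Atf4 averaged -2.78 ± 0.30 in the FGF23 variant group, -3.32 ± 0.18 in the mCherry group and -6.33 ± 0.84 in NC (SD, n = 4 each), and all 3 comparisons reached the same exact permutation p. Psat1 to Phgdh, successive enzymes of serine synthesis, averaged 0.19 ± 0.33 in the FGF23 variant group, 0.98 ± 0.46 in the mCherry group and 1.36 ± 0.40 in NC. It was lower in FGF23 variant kidneys than in the mCherry group by log2 -0.79 (exact permutation p = 0.0286, adjusted p = 0.0357), while mCherry and NC differed by -0.38 (exact permutation p = 0.229, adjusted p = 0.245). Ppp1r15a to Eif2ak3, the phosphatase subunit against the kinase, averaged 1.02 ± 0.48 in the FGF23 variant group, 1.30 ± 0.38 in the mCherry group and -1.46 ± 0.22 in NC. The injured groups did not differ by the test (exact permutation p = 0.429, adjusted p = 0.429) and each exceeded NC (exact permutation p = 0.0286, adjusted p = 0.0357). With 1 library left out, 4 against 3 have 35 assignments and an exact p of at least 0.0286, so a p of 0.0571 there is the next above the smallest. Against mCherry, the FGF23 variant difference then ran from 0.79 to 1.15 for Ddit3 to Atf4, from 0.42 to 0.66 for Trib3 to Atf4, from 0.61 to 0.90 for Asns to Atf4 and from -0.94 to -0.61 for Psat1 to Phgdh. Its exact permutation p was 0.0571 without replicate 1 of the FGF23 variant group or any mCherry library for Ddit3 to Atf4, and without any mCherry library for Trib3 to Atf4. For Asns to Atf4 it was 0.0857 without replicates 1 or 5 and 0.0571 without replicates 2 or 3 of the FGF23 variant group or replicate 3 of mCherry. For Psat1 to Phgdh it was 0.0857 without replicate 1 and 0.0571 without any other library of the FGF23 variant group or replicate 1 of mCherry. Against NC, the FGF23 variant difference of Psat1 to Phgdh ran from -1.36 to -1.03, with an exact permutation p of 0.0571 without any FGF23 variant library.

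**Figure D3:**
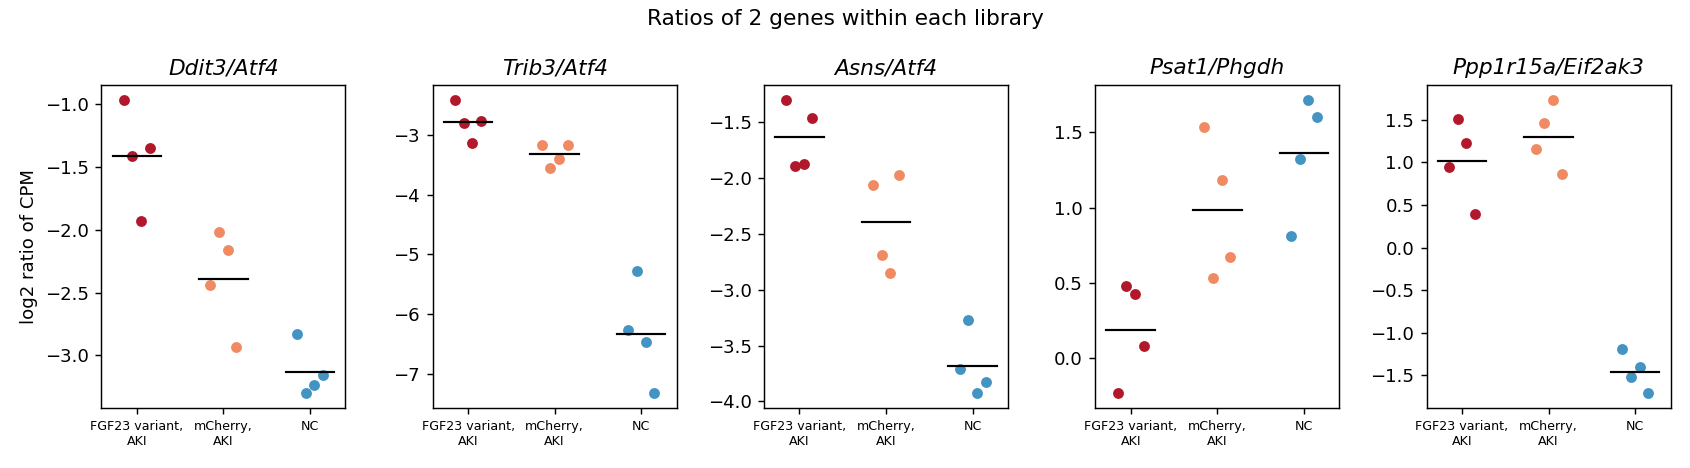
Log2 ratio of CPM of the named pairs of genes in each library, by group, with a line at the group mean. The FGF23 variant points of Ddit3 to Atf4, Trib3 to Atf4 and Asns to Atf4 lie above all mCherry points, and those of Psat1 to Phgdh lie below them.

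To compare levels between genes, the FPKM values that the authors deposited (fragment counts corrected for the gene's length and the library's total) were used. In the FGF23 variant group Atf4 led at 108 ± 11.8 FPKM, followed by Ddit3 (56.3), Phgdh (42.1), Ppp1r15a (35.0), Asns (29.9), Psat1 (27.8), Sesn2 (21.4), Trib3 (17.5), Mthfd2 (11.4) and Eif2ak3 (8.24). Of neighbours in that order, Ddit3 to Psat1 overlapped step by step, as did Sesn2 and Trib3, and the other steps were clear of overlap. In the mCherry group the order was Atf4 (109 FPKM), Ddit3 (29.7), Ppp1r15a (23.4), Psat1 (20.9), Phgdh (18.3), Asns (18.1), Sesn2 (15.0), Trib3 (12.1), Mthfd2 (8.33) and Eif2ak3 (4.55), and neighbours from Ddit3 to Trib3 overlapped.

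In NC the order was Atf4 (30.3 FPKM), Sesn2 (13.7), Eif2ak3 (5.56), Psat1 (5.48), Ddit3 (4.81), Ppp1r15a (4.21), Phgdh (3.71), Asns (2.05), Mthfd2 (0.843) and Trib3 (0.460). There Eif2ak3 to Phgdh overlapped with their neighbours, as did Mthfd2 and Trib3. Atf4 was first in all 3 groups. Sesn2 and Eif2ak3 ranked next in NC, and Eif2ak3 was last in both injured groups.

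The genes whose pattern over the 12 libraries was most like that of a member were taken by Pearson r of log2(CPM + 1). They are given for Phgdh, Asns, Atf4 and Ddit3, and not for the other members. For Phgdh these were Psph, the last enzyme of serine synthesis (r = 0.988, Spearman rho = 0.993), and Psmd14 (r = 0.986, rho = 0.958). For Asns they were the arginine transporter gene Slc7a1 (r = 0.993, rho = 0.965) and Tes (r = 0.992, rho = 0.923). For Atf4 they were Dap (r = 0.995, rho = 0.951) and Mob3a (r = 0.994, rho = 0.972), and for Ddit3 the tryptophanyl-tRNA synthetase gene Wars1 (Wars in the annotation used, r = 0.990, rho = 0.965) and Mfge8 (r = 0.987, rho = 0.965). The libraries fall into 3 groups that differ in these genes, so these values are a description that mostly follows the group means.

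The wider pathway was read from 7 lists with 115 genes, none of them members. The counts of each list stand beside the shares of all genes tested. These were 11.7% higher and 11.4% lower for the FGF23 variant group against mCherry. They were 27.2% and 26.0% for mCherry against NC, and 21.7% and 20.6% against NC in the FGF23 variant group. Among 17 other sensors and parts of the eIF2 machinery, 3 were higher in FGF23 variant kidneys than in the mCherry group and none was lower. Dnajc3, a chaperone that inhibits eIF2 kinases, averaged 308 ± 47.3 CPM in the FGF23 variant group, 125 ± 11.4 CPM in the mCherry group and 175 ± 8.59 CPM in NC (SD, n = 4 each). Like Eif2ak3 it was higher in FGF23 variant kidneys than in mCherry (log2 1.28 ± 0.13, edgeR adjusted p = 3.67e-04) and lower in mCherry than in NC (log2 -0.48 ± 0.09, edgeR adjusted p = 0.00134). Dele1, which carries mitochondrial stress to the kinase HRI, was called in the same directions in both comparisons (53.7, 35.6 and 73.0 CPM in the FGF23 variant, mCherry and NC groups). Impact, an inhibitor of the kinase GCN2, was the other gene called higher (61.8 CPM in the FGF23 variant group, 39.6 CPM in the mCherry group). For mCherry against NC, 9 of the 17 were higher and 3 lower, and against NC in the FGF23 variant group 11 were higher and 2 lower.

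Of 12 partner and related transcription factors, 11 could be tested between the injured groups. There 2 were higher and 2 lower in the FGF23 variant group, against 11.7% and 11.4% of all genes tested. Atf3, a stress factor downstream of ATF4, averaged 52.5 ± 11.5 CPM in the FGF23 variant group, 51.4 ± 11.8 CPM in the mCherry group and 1.09 ± 0.342 CPM in NC. It was higher in mCherry than in NC (log2 5.56 ± 0.27, edgeR adjusted p = 1.27e-07), with a log2 difference of 0.01 ± 0.19 between the injured groups (edgeR adjusted p = 0.973). Nupr1, a stress-induced chromatin protein, was lower in FGF23 variant kidneys than in mCherry (23.2 ± 6.55 CPM against 103 ± 47.3 CPM, log2 -2.16 ± 0.33, edgeR adjusted p = 0.00237). Against NC, 6 of the 12 were higher and 1 lower in the mCherry group, and 8 were higher and none lower in the FGF23 variant group.

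Among 11 amino acid transporters known as ATF4 targets, 7 were higher and none was lower in FGF23 variant kidneys than in mCherry, with a median log2 fold change of 0.56 against 0.01 over all genes tested. Slc7a11, the cystine carrier, averaged 60.9 ± 9.61 CPM in the FGF23 variant group, 27.1 ± 4.02 CPM in the mCherry group and 0.154 ± 0.0882 CPM in NC (log2 1.15 ± 0.14 between the injured groups, edgeR adjusted p = 8.27e-04). Slc3a2, its partner chain, averaged 400 ± 31.5 CPM, 238 ± 35.1 CPM and 131 ± 24.2 CPM in the same order of groups (log2 0.74 ± 0.12 between the injured groups, edgeR adjusted p = 0.00340). Slc7a5, the leucine carrier, was higher with mCherry than in NC (log2 2.99, edgeR adjusted p = 5.39e-08), and it differed by log2 -0.01 between the injured groups. In all, 8 transporters were higher and 1 lower in mCherry than in NC, and 9 were higher and 1 lower in FGF23 variant kidneys than in NC.

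The list of other serine, glycine and one-carbon enzymes holds 24 genes. Of 23 tested, 15 were lower and 4 higher in mCherry than in NC (median log2 -1.12), and of 22 tested, 12 were lower and 3 higher in FGF23 variant kidneys than in NC (median -0.43). Mthfd1l, a mitochondrial folate enzyme that acts after MTHFD2, was among those higher in mCherry than in NC, like Phgdh, Psat1 and Mthfd2 (log2 2.75 ± 0.22, edgeR adjusted p = 3.18e-06). Against mCherry, 14 of 22 were higher in the FGF23 variant group and none was lower (median 0.68). Psph was higher in mCherry than in NC, as were Phgdh and Psat1 (33.1 ± 2.03 CPM in the FGF23 variant group, 23.3 ± 2.77 CPM in the mCherry group and 14.1 ± 1.28 CPM in NC). Gatm, which makes the creatine precursor from glycine in the proximal tubule, had 106 ± 76.4 CPM in the FGF23 variant group, 15.3 ± 7.04 CPM in the mCherry group and 383 ± 86.7 CPM in NC. Aldh1l2, the mitochondrial folate enzyme, had 73.7 ± 41.2 CPM in the FGF23 variant group, 5.65 ± 1.65 CPM in the mCherry group and 2.04 ± 0.913 CPM in NC (log2 3.68 ± 0.42 between the injured groups, edgeR adjusted p = 6.70e-04). Several of these enzymes are genes of the proximal tubule, whose 7 markers were all lower in both injured groups than in NC, and the part of that in these counts was not tested.

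Among 18 further stress outputs of ATF4 and CHOP, 5 were higher and 4 lower in FGF23 variant kidneys than in mCherry. The shares of all genes tested were 11.7% and 11.4%, and the median log2 fold change of the list was -0.03. Gdf15, a circulating stress hormone, averaged 54.3 ± 4.03 CPM in the FGF23 variant group, 107 ± 17.9 CPM in the mCherry group and 7.97 ± 1.31 CPM in NC, and was lower in FGF23 variant kidneys than in mCherry (log2 -0.999 ± 0.12, edgeR adjusted p = 8.74e-04). Herpud1, of endoplasmic reticulum protein degradation, averaged 287 ± 29.9 CPM, 133 ± 16.9 CPM and 310 ± 12.2 CPM in the same order of groups, so that, as with Eif2ak3 and Dnajc3, the mCherry group was lowest (log2 1.10 between the injured groups, edgeR adjusted p = 5.87e-04). Against NC, 11 of the 18 were higher and 5 lower in the mCherry group, and 10 were higher and 3 lower in the FGF23 variant group.

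**Figure D4:**
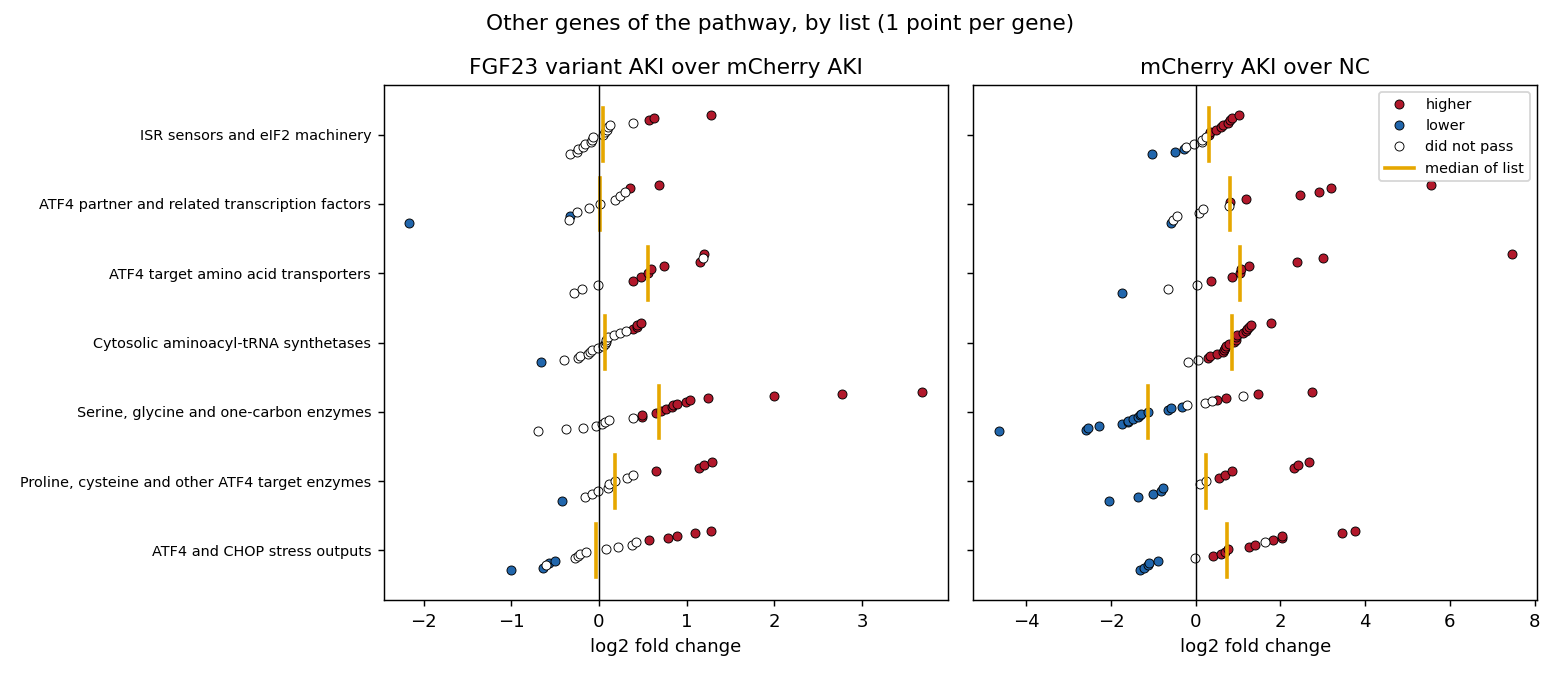
Log2 fold change of each gene of the 7 pathway lists (points, coloured by call), with a bar at each list's median, for the FGF23 variant group over mCherry (left) and mCherry over NC (right). The serine, glycine and one-carbon list has a median of 0.68 on the left and of -1.12 on the right.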

How the data were processed

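Kidney RNA was measured in 12 libraries, and the title of each gave its group. Poly(A) RNA went into strand-marked paired-end libraries made with dUTP, per the labels' protocols. The tools fastp, StringTie and edgeR and the build GRCm39 are listed, without versions, in the submitters' processing notes, and the aligner is not given in the sources used here. Per the file headers, the authors deposited counts and FPKM values of 32047 genes by library. Symbols came from the annotation supplied, which covered 31942 of them.

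The deposited counts were tested with edgeR 4.0.16 (R 4.3.3), using only the 8 libraries of a comparison, filterByExpr, TMM scaling and the quasi-likelihood F test, with Benjamini-Hochberg adjusted p-values over all genes tested and a threshold of 0.05. All 10 genes passed the filter on low counts in all 3 comparisons. CPM values use TMM factors over all 12 libraries, which ran from 1.11 to 1.13 in the FGF23 variant libraries, 0.901 to 1.03 in mCherry and 0.888 to 0.925 in NC. FPKM served only to order genes by level. Ratios were compared by exact two-sided permutation. The fit was checked on simulated counts. A count of 4 was found 11995 times in the table, but 3 only 5847 times and 5 only 3638 times, so counts are not taken as independent molecules, and the cause was not tested. No library pair within a group was close enough to be a duplicate (chi-square over its degrees of freedom was 36.5 or more).

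The 10 genes, the lists, the markers and the tests were chosen with earlier results of these data known. Of each list, up to 3 genes with the largest rise and up to 3 with the largest fall among those called, with a mean of at least 1 CPM in the higher group, could be named. Of the genes most like a member, the first 2 with a mean of at least 5 CPM were taken. Alternatives were RLE scaling, library totals alone, no filter, DESeq2 1.42.0, a joint fit of all 12 libraries, a block for the replicate number, and leaving out each library in turn.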

Additional observations from a re-analysis of the deposited data

Results flagged for a closer look

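In 1 of 45 groups of 4 values, each a member's CPM or a ratio in a group, a library stood apart by Dixon's test. Mthfd2 had 34.8 CPM in replicate 3 of the FGF23 variant group, against 39.2 to 40.1 CPM in the other libraries of that group. Chance flags about 1 in 20 groups.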

How the results depend on the processing

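Eif2ak3 and Phgdh were called higher in FGF23 variant kidneys than in mCherry under every alternative, and the 8 members called higher than NC in each injured group kept their calls. Between the injured groups, 3 members were called higher in the main fit, against 11.7% of all genes tested. Library totals alone gave 8, against 21.6%, and DESeq2 gave 5 (Eif2ak3, Ddit3, Asns, Phgdh and Sesn2), against 9.21%. Leaving out 1 library gave 2 to 5, against 6.52% to 10.8%. Against NC, leaving out 1 library gave 9 members called in the mCherry group under each choice, 8 of them higher. It gave 8 to 9 in the FGF23 variant group, all higher. The shares of all genes tested that were then called higher were 24.2% to 26.0% and 18.2% to 21.3%. Genes called between the injured groups numbered 2410 to 4259 with 1 library left out, against 4347, with 2410 without replicate 1, 2853 without replicate 2 and 2718 without replicate 5 of the FGF23 variant group. The range was 8916 to 9726 for mCherry against NC (9947 in the full fit) and 6977 to 8048 against NC in the FGF23 variant group (8035 in the full fit). With library totals alone the median of all genes was log2 0.12 for mCherry against NC and 0.34 against NC in the FGF23 variant group, and the share of called genes that were higher there was 59.6% and 78.9%, against 51.2% and 51.3%. The direction of Sesn2 in mCherry against NC, not called, turned without mCherry replicates 1 (log2 -0.000954) and 3 (-0.0177) and without NC replicates 1 (-0.118), 3 (-0.0106) and 4 (-0.00480), with a range up to 0.23 without NC replicate 2, and Eif2ak1 in the FGF23 variant group against NC turned to log2 0.11 with library totals alone. The cause was not tested. Groups shared replicate numbers. The deviations of same-numbered libraries had correlations of 0.0813 to 0.231 between the injured groups. They had -0.389 to 0.101 for mCherry against NC and -0.225 to -0.0989 for the FGF23 variant group against NC. The numbers were not taken as pairs in the main fit, though between the injured groups all of these correlations were positive. With the replicate block, 1787 genes were called between the injured groups, against 4347, and 4723 against NC in the FGF23 variant group, where the full fit had 8035. In both of these block fits, replicate 5 of the FGF23 variant group and replicate 4 of the other group had no partner of the same number. Being alone in their blocks they added nothing to the difference, so these counts rest on fewer libraries. The block changed no call of a member, and 13 of 95 calls of pathway genes were lost, among those described above that of Impact between the injured groups. Library totals alone lost 9 of the 95 and no filter 2, and leaving out 1 library lost a call 29 times, none of these a call described above. Of 6 numbered libraries in the first comparison, 4 correlated best with their own number.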

Other observations

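The cytosolic aminoacyl-tRNA synthetases, which charge transfer RNAs with amino acids and of which many are ATF4 targets, were mostly higher in both injured groups than in NC. Of 20 genes, 18 were higher and none lower in the mCherry group than in NC, against 27.2% and 26.0% of all genes tested. The counts were the same for the FGF23 variant group against NC, where the shares were 21.7% and 20.6%. Between the injured groups 4 were higher and 1 lower in the FGF23 variant group, against 11.7% and 11.4% of all genes tested. The gene called lower was Vars1, for valine, with 74.2 ± 4.49 CPM in the FGF23 variant group, 116 ± 22.6 CPM in the mCherry group and 34.1 ± 3.38 CPM in NC (SD, n = 4 each), a log2 difference of -0.66 ± 0.13 between the injured groups (SE, edgeR adjusted p = 0.00802).

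Of 13 proline, cysteine and other enzymes listed as ATF4 targets, 4 were higher and 1 lower in FGF23 variant kidneys than in mCherry. The shares of all genes tested were 11.7% and 11.4%. For mCherry against NC 6 were higher and 5 lower, beside 27.2% and 26.0% of all genes. Against NC in the FGF23 variant group 6 were higher and 4 lower, beside 21.7% and 20.6%. Chac1, which breaks down glutathione, averaged 23.1 ± 5.61 CPM in the FGF23 variant group, 9.34 ± 1.79 CPM in the mCherry group and 1.76 ± 1.71 CPM in NC (log2 1.29 ± 0.20 between the injured groups, edgeR adjusted p = 0.00273). Cth, the last enzyme of cysteine synthesis, averaged 180.2 ± 35.3 CPM in the FGF23 variant group, 77.6 ± 18.9 CPM in the mCherry group and 199 ± 9.70 CPM in NC. Unlike Chac1 it was lower in mCherry than in NC (log2 -1.35, edgeR adjusted p = 6.47e-05), and the FGF23 variant group did not differ from NC by the test (log2 -0.16, edgeR adjusted p = 0.347).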
